A study of Arabidopsis thaliana with 6 samples.

Results

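The nuclear genes of plastid ribosomal proteins were examined in leaves of pam48, a mutant of Arabidopsis thaliana that the labels also call mterf6-1, and of wild type, each on 3 Affymetrix arrays. Of 38 nuclear loci listed for proteins of the plastid ribosome, 9 had a probe set that the platform annotation gives to a single gene, out of 13286 loci in all with such a probe set. The other 29 were found on no probe set in that annotation, also on none shared by several genes, and are not analysed here. The 9 are all named by locus alone, and listed loci with another symbol are all among the 29. The 9 are therefore not an arbitrary part of the list. Whether probe sets without a gene name measure them was not tested. The members were taken by locus and not by their values. Both genotypes are in the Col-0 background, were grown on soil in a greenhouse under 16 h light and 8 h dark, and gave leaves of equal age from rosettes with 8 leaves. The labels name a single mutant line, call the replicates biological, and do not say how many plants each array represents.

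Plastid ribosomes resemble those of bacteria and make the plastid-encoded subunits of the photosynthetic complexes. Their own proteins come from both genomes: some are encoded in the plastid by the rps and rpl genes, and the rest by nuclear genes whose products are made in the cytosol and imported. In leaves the nuclear genes are strongly expressed while chloroplasts are being built. The mTERF family, which the second name of the mutant refers to, holds organelle proteins related to a mitochondrial transcription termination factor, so that the comparison asks whether the nuclear part of the plastid ribosome differs in RNA level beside the plastid part.

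No change passed the test in the 9 nuclear genes. Their pam48 minus wild-type differences in mean log2 value lay between −0.09 and 0.19 with a median of 0.06, against a median of −0.03 over all 22746 probe sets. At an adjusted p under 0.05 limma called 0 of the 9, where 0.778% of all probe sets were called. Before adjustment 0 of the 9 were under 0.05, where 13.5% of all probe sets were. The 95% intervals of the 9 differences together spanned 0.735-fold to 1.5-fold, so that changes beyond these bounds lie outside the interval of every member. On the same arrays 4 of 15 plastid-encoded ribosomal protein genes with a single-gene probe set were called higher in pam48. The median difference of the 15 was 0.70. Whether RNA of the nucleus and of the plastid was labelled alike was not tested.

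The standard errors of the 9 differences lay between 0.09 and 0.16, and the pooled standard deviation within genotypes had a median of 0.12, against 0.18 over all probe sets. At the p that the last called probe set reached, a member would have needed a difference of 0.62 to 1.08, or 1.54-fold to 2.11-fold, to be called. A larger absolute difference than that of any member was found in 41.5% of all probe sets, and in 47.0% of the 730 probe sets whose mean level lay in the range of the members, 11.02 to 13.09.

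**Figure D1:**
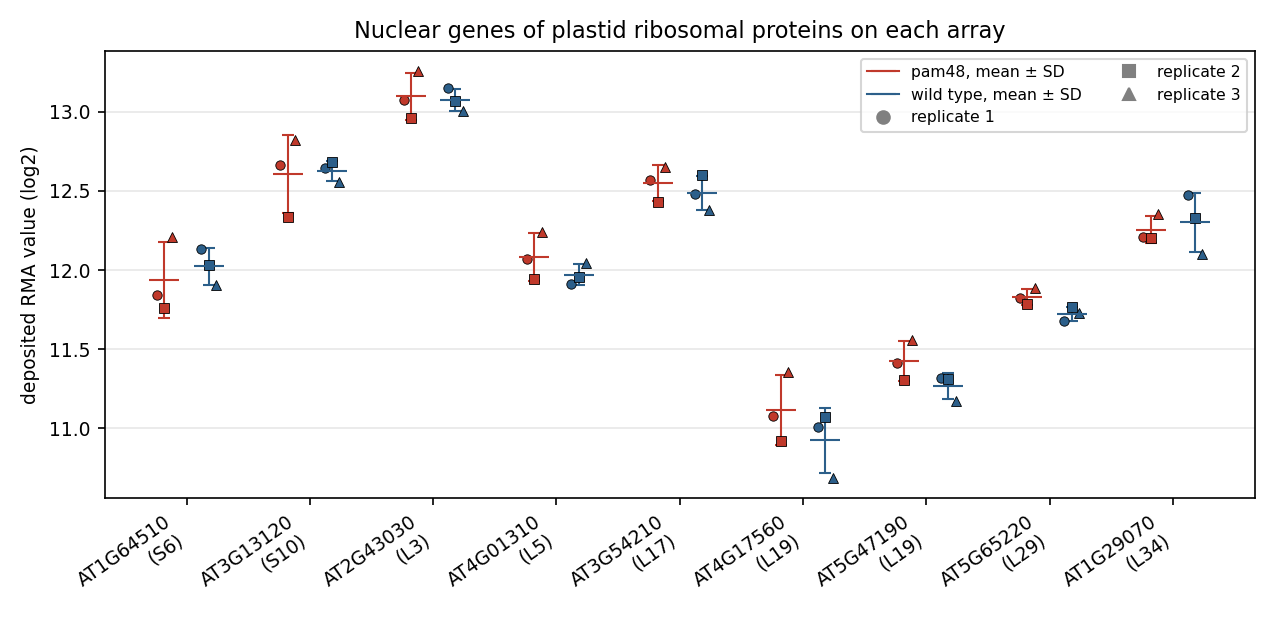
Deposited RMA values (log2) of the 9 nuclear genes on each array, with pam48 left of wild type, one marker shape per replicate number, and bars for the mean ± SD (n = 3). The genotypes overlap in 8 of the 9 genes, and the triangle of pam48 replicate 3 tops the pam48 values of each gene; heights of different genes are not comparable, as each is measured by its own probe set.

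Of the 9 genes 2 encode small-subunit proteins. AT1G64510 encodes a protein of the S6 family, which in Escherichia coli pairs with S18 on the platform of the small subunit. Its log2 values were 11.84, 11.76 and 12.21 in pam48 and 12.13, 12.03 and 11.90 in wild type. The pam48 arrays held both the highest and the lowest of the 6 values. The difference was −0.09 ± 0.15 (SE, n = 3 each, limma adjusted p = 0.841), with a 95% interval of −0.44 to 0.27.

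AT3G13120 encodes a protein of the S10 family, part of the head of the small subunit. It was at 12.66, 12.34 and 12.82 in pam48 and at 12.64, 12.68 and 12.56 in wild type. The wild-type arrays lay close together, inside the span of the pam48 arrays. Its difference of −0.02 ± 0.15 (limma adjusted p = 0.973) was the smallest in size of the 9, with an interval of −0.37 to 0.33.

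Among the 7 large-subunit genes, 6 had a positive difference and 1 a negative one, and the median was 0.11. AT2G43030 encodes a protein of the L3 family, which in bacteria binds ribosomal RNA early in assembly of the large subunit. It read 13.08, 12.96 and 13.26 in pam48 against 13.15, 13.07 and 13.01 in wild type. These values interleave, and the difference was 0.02 ± 0.12 (limma adjusted p = 0.951). AT4G01310, of the L5 family that holds the small ribosomal RNA of the large subunit in place, had 12.07, 11.94 and 12.24 in pam48 and 11.91, 11.95 and 12.05 in wild type. Here pam48 replicates 1 and 3 were above each wild-type array and pam48 replicate 2 was not, with a difference of 0.11 ± 0.12 (limma adjusted p = 0.719).

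AT3G54210 encodes a protein of the L17 family, which lies near the exit of the peptide tunnel in bacteria. Its values of 12.57, 12.43 and 12.65 in pam48 overlapped those of wild type, 12.48, 12.60 and 12.38, and the difference was 0.06 ± 0.11 (limma adjusted p = 0.853). AT5G65220, of the L29 family at the same tunnel exit, varied least. It was at 11.82, 11.78 and 11.89 in pam48 and at 11.68, 11.77 and 11.73 in wild type. Every pam48 array lay above every wild-type array, which among the 9 genes held for this one alone, while the genotypes did not overlap in 20.5% of all probe sets. The lowest pam48 and the highest wild-type value were 0.02 apart, both on arrays numbered 2, and the difference was 0.11 ± 0.09 (limma adjusted p = 0.670) with an interval of −0.12 to 0.33.

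AT1G29070, of the L34 family of small basic proteins bound to ribosomal RNA, was at 12.21, 12.21 and 12.36 in pam48. In wild type it was at 12.48, 12.33 and 12.10, so that the highest and the lowest value both came from wild type. The difference was −0.05 ± 0.13 (limma adjusted p = 0.904), and this gene was the only one of the 9 with a larger standard deviation in wild type (0.19) than in pam48 (0.09).

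A pair of loci encode proteins of the L19 family, which in bacteria sits where the subunits meet, and with all 6 arrays they had the largest differences of the 9 genes. AT4G17560 had 11.08, 10.92 and 11.36 in pam48 and 11.01, 11.07 and 10.69 in wild type. Replicate 3 of the genotypes set the extremes, highest in pam48 and lowest in wild type. AT5G47190 had 11.41, 11.30 and 11.56 in pam48 and 11.32, 11.31 and 11.17 in wild type, with the same arrays at its extremes. The differences were 0.19 ± 0.16 for AT4G17560 (limma adjusted p = 0.655, interval −0.20 to 0.58) and 0.16 ± 0.11 for AT5G47190 (limma adjusted p = 0.601, interval −0.11 to 0.43). These sizes rested on the replicate 3 arrays: without pam48 replicate 3 they were 0.075 for AT4G17560 and 0.090 for AT5G47190, smaller in size than the −0.22 of AT1G64510, and without wild type replicate 3 they were 0.077 and 0.11, below the 0.15 of AT4G01310. Over the 6 arrays their values correlated with r = 0.96, the highest of the 36 pairs of members. Whether related sequence lets either probe set detect the RNA of the other locus was not tested.

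The 9 genes varied together from array to array. Of the 36 correlations between members over 6 arrays 34 were positive, with a median r of 0.65 and a range from −0.14 to 0.96. With each genotype centred on its own mean the median was 0.75, and 35 of 36 were positive. These points share their arrays and their normalization, so the correlations are given as a description. Pairs of other probe sets were not examined beside them, so whether the pattern is particular to these genes was not tested. The exceptions over the 6 arrays were AT1G29070 with AT5G65220 and AT1G29070 with AT4G01310.

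Within pam48 each of the 9 genes was lowest on replicate 2 and highest on replicate 3, though AT1G29070 was at 12.21 on both of the other arrays. In wild type 7 of the 9 were lowest on replicate 3. With each gene centred on its mean over the 6 arrays, the members averaged 0.01, −0.11 and 0.19 on pam48 replicates 1, 2 and 3. The wild-type arrays gave 0.02, 0.02 and −0.12. The means of the genotypes, 0.03 ± 0.15 in pam48 and −0.03 ± 0.08 in wild type (SD, n = 3), differed by 0.06, less than either standard deviation.

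Taken by replicate number, the members' mean difference between pam48 and wild type was −0.01 for number 1, −0.13 for number 2 and 0.31 for number 3. Of the 9 genes 6 were higher in pam48 for number 1, 1 for number 2 and 9 for number 3, and AT5G65220 alone was higher in all 3. The numbers therefore did not give 1 direction for the set. With the replicate number as a block, limma again called 0 of the 9, where 1.81% of all probe sets were called, and the adjusted p of the 9 lay between 0.612 and 0.972.

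The array pam48 replicate 2 stood apart in the 3′ and 5′ control probe sets, whose difference widens as RNA is degraded or labelled less completely. Its 3′ minus 5′ difference was 3.67 for actin, against 2.46 to 3.23 on the other 5 arrays. The differences were 2.41 against 1.13 to 1.44 for GAPDH and 2.48 against 1.83 to 2.23 for ubiquitin. It was the widest of the 6 arrays for all 3 controls. This was also the array on which the nuclear genes were lowest within pam48 and on which 14 of the 15 plastid-encoded genes were highest; the part of RNA quality in either was not tested. Without it the nuclear median was 0.12, 8 of the 9 differences were positive, between −0.02 and 0.29, and 0 were called, in a fit that called only 12 of all 22746 probe sets (0.0528%).

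**Figure D2:**
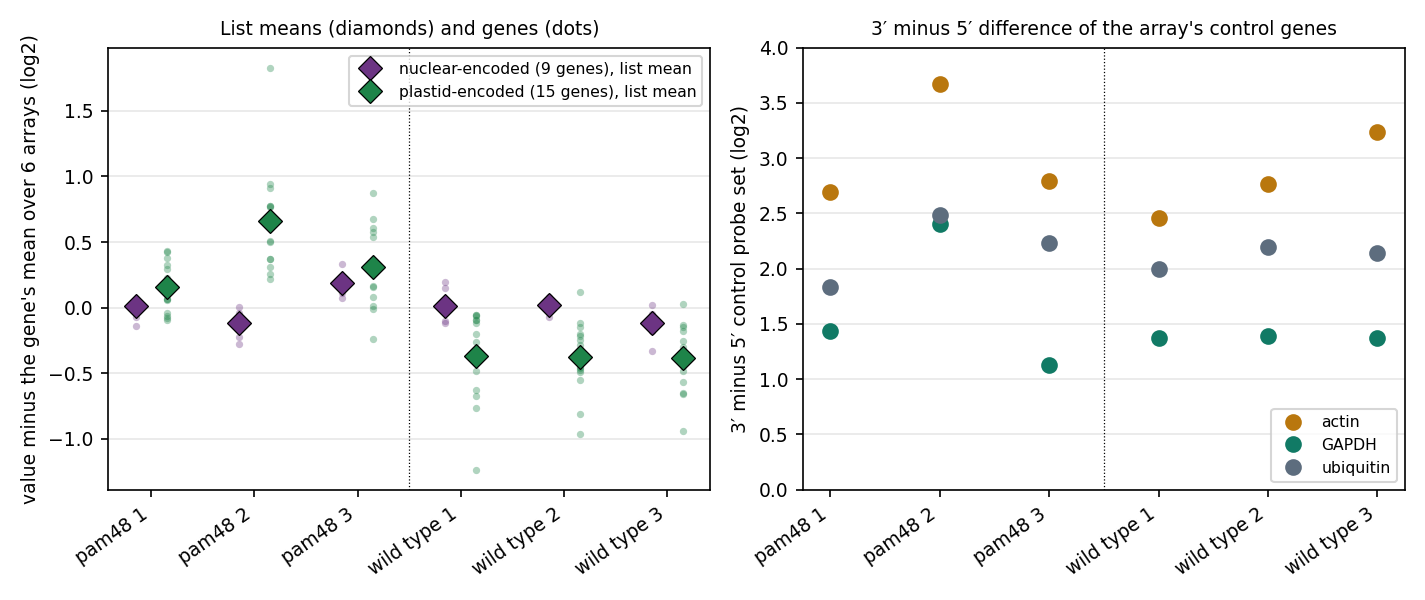
Left, values minus each gene's mean over the 6 arrays (log2) for 9 nuclear-encoded and 15 plastid-encoded genes (dots) and the list means (diamonds); right, the 3′ minus 5′ difference (log2) of 3 control genes, with pam48 left of wild type in both panels. The nuclear means lie between −0.12 and 0.19 on all 6 arrays, the plastid means between 0.16 and 0.66 in pam48 and between −0.39 and −0.36 in wild type, and pam48 replicate 2 has the widest 3′ minus 5′ difference of each control.

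Of 21 plastid-encoded rps and rpl genes 15 had a single-gene probe set on the same arrays, 8 rps and 7 rpl genes. Genes with a pair of copies were measured by 5 further probe sets, given under Other observations. Of those 5 differences 4 were positive and 1 was negative. All 15 had a positive difference, between 0.05 and 2.09. limma called 4 of them higher and 0 lower, where 0.598% of all probe sets were called higher. Before adjustment 12 of the 15 had p under 0.05, and in 13 of the 15 every pam48 array lay above every wild-type array, as in 9.14% of all probe sets. The 4 called were rps16 (1.33 ± 0.18, 2.51-fold, limma adjusted p = 0.0410), rpl14 (1.18 ± 0.17, 2.27-fold, limma adjusted p = 0.0450), rps4 (1.18 ± 0.13, 2.27-fold, limma adjusted p = 0.0252) and rpl16 (1.01 ± 0.14, 2.02-fold, limma adjusted p = 0.0439). In bacteria S4 is a primary binding protein of the small-subunit RNA.

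The widest span among the 15 was that of rpl20, which was not called. It was at 7.70, 9.09 and 8.14 in pam48 and at 6.03, 6.31 and 6.33 in wild type. The pam48 arrays were all higher but far apart, and the difference was 2.09 ± 0.34 (limma adjusted p = 0.0628); with the replicate block it was called (limma adjusted p = 0.0306). The smallest difference was that of rps14, which had 4.84, 5.28 and 4.67 in pam48 and 4.85, 5.03 and 4.78 in wild type. These ranges overlap, with a difference of 0.05 ± 0.18 (limma adjusted p = 0.934). Its probe set was among the 40% with the lowest mean, the only one of the 15 that was.

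The sizes of the 4 called differences moved little when an array was left out. Over the 6 such fits the difference lay between 1.09 and 1.27 for rps4, 1.19 and 1.47 for rps16, 1.02 and 1.32 for rpl14, and 0.92 and 1.15 for rpl16. The calls themselves were lost in 5 of these fits, along with most calls of the whole table. Of the 15 genes 0 were called without wild type replicate 1, 2 or 3, when 1 of all 22746 probe sets was called in each fit, without pam48 replicate 2 (12 of all) and without pam48 replicate 3 (39 of all). Without pam48 replicate 1 there were 5 (291 of all, or 1.28%). The median difference was 0.51 without pam48 replicate 2, and 14 of 15 differences were then positive.

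**Figure D3:**
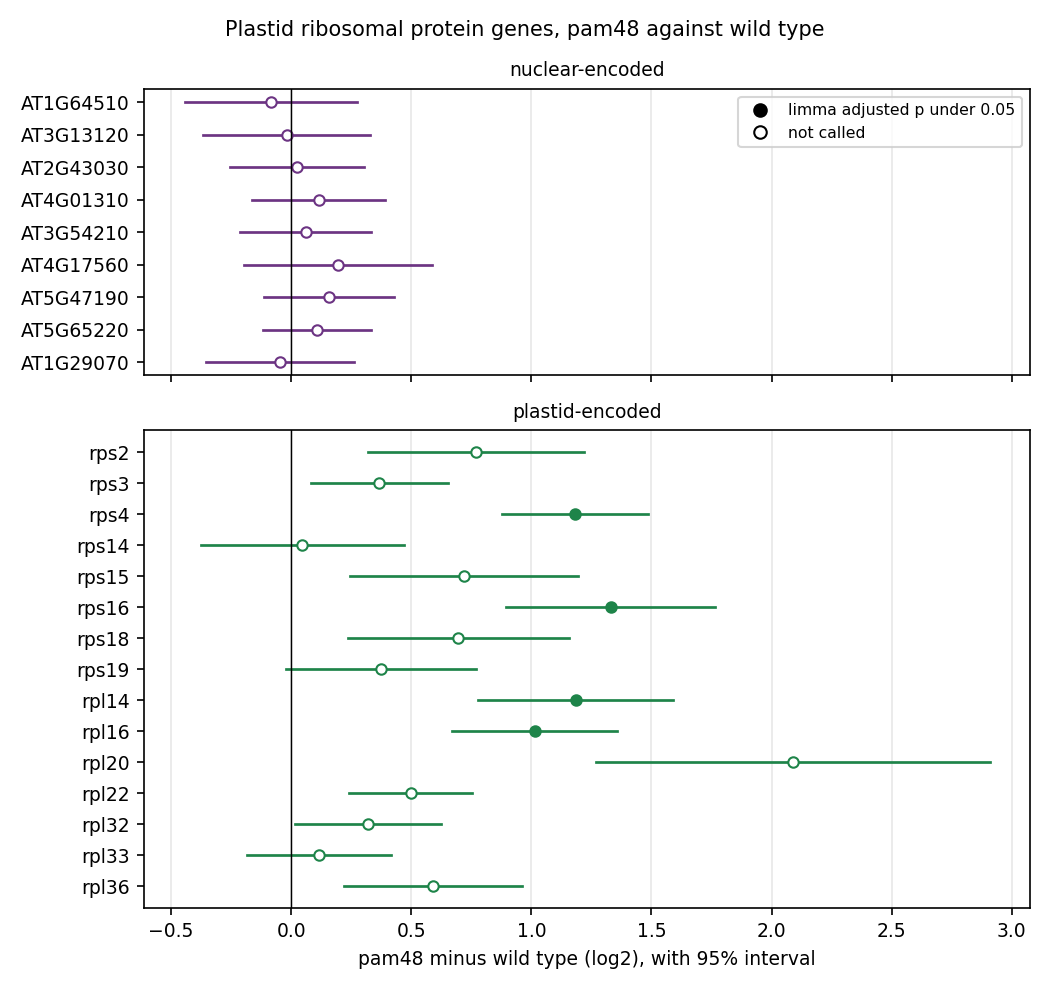
Change in mean log2 value (pam48 minus wild type) with 95% intervals from limma (n = 3 arrays per genotype). Shown are 9 nuclear-encoded (top) and 15 plastid-encoded (bottom) ribosomal protein genes with a single-gene probe set. Filled points were called at an adjusted p under 0.05. The 9 nuclear differences lie between −0.09 and 0.19 and all their intervals cross 0, and the 15 plastid differences lie between 0.05 and 2.09, with rps4, rps16, rpl14 and rpl16 filled.

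The lists were also set against each other array by array. The nuclear mean minus the plastid mean, both centred as above, was −0.15, −0.77 and −0.13 on pam48 replicates 1, 2 and 3, against 0.38, 0.40 and 0.27 on those of wild type. The genotypes did not overlap, and their means differed by −0.70. With probe sets of several genes added to the lists, the shift was −0.59 and the plastid-encoded median difference 0.64. The part of labelling in this shift was not tested. By replicate number the plastid-encoded list was higher in pam48 by 0.52, 1.04 and 0.70, and 13 of its 15 genes were higher in all 3 pairs, against 1 of the 9 nuclear genes. In bulk leaf RNA, a different number of cells of a type and a different amount of RNA per cell cannot be told apart.

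Some of the 9 proteins have a plastid-encoded partner that touches them in the bacterial ribosome, and 6 such pairs were compared by the nuclear minus the plastid value on each array. Only the shift between genotypes has meaning, since the probe sets differ. Each shift is the nuclear difference minus the plastid difference on the same arrays, so that it adds no separate evidence to these differences. For AT1G64510 (S6) and rps18 the value was 2.36 ± 0.42 in pam48 and 3.14 ± 0.13 in wild type (SD, n = 3), a shift of −0.78. For AT2G43030 (L3) and rpl14 it was 0.86 ± 0.40 in pam48 and 2.01 ± 0.15 in wild type, a shift of −1.16. The L19 loci AT4G17560 and AT5G47190 shifted by −0.99 and −1.03 against rpl14. In these 4 pairs the genotypes did not overlap (two-sided exact permutation test, p = 0.1, the smallest that 3 against 3 arrays allow, and 0.15 after Benjamini-Hochberg adjustment over the 6 pairs), and 3 of them share rpl14.

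AT3G13120 (S10) was set beside 2 plastid-encoded proteins of the small-subunit head. Against rps3 the value was 0.44 ± 0.36 in pam48 and 0.82 ± 0.08 in wild type, and the genotypes overlapped (exact permutation p = 0.2, adjusted 0.24). Against rps14, the dim probe set, the shift was −0.07 (exact permutation p = 1). The design cannot reach a p under 0.05 for any of these pairs.

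Other nuclear genes of plastid translation were read from a pair of lists. Of 14 loci for translation factors and further ribosome-associated proteins 6 were measured, with a median difference of 0.03. At an adjusted p under 0.05 limma called 0 of the 6, where 0.778% of all probe sets were called. Before adjustment 0 of them were under 0.05, where 13.5% of all probe sets were. The largest difference was that of AT2G24060, a plastid initiation factor of the IF3 family, at 10.21, 10.39 and 10.47 in pam48 and 9.99, 10.30 and 10.03 in wild type. These ranges overlap, and the difference was 0.25 ± 0.13 (limma adjusted p = 0.468). FUG1, the plastid initiation factor of the IF2 family, stood at 0.01 ± 0.15, and AT5G08650, an elongation factor of the LepA family, at 0.18 ± 0.12.

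Ribosome assembly and maturation of ribosomal RNA were represented by 8 of 23 loci. None of them was called either, where 0.778% of all probe sets were called. Of the 8 differences 7 were positive, and the median was 0.42. Before adjustment 4 of the 8 had a p under 0.05, where 13.5% of all probe sets did. The largest difference was that of AT5G66470, a GTPase of the Era family that acts in assembly of the small subunit in bacteria. It averaged 10.18 ± 0.16 in pam48 and 9.59 ± 0.20 in wild type (SD, n = 3). Every pam48 array was above every wild-type array, with a difference of 0.59 ± 0.15, or 1.51-fold (limma adjusted p = 0.155, interval 0.25 to 0.94). The genotypes also did not overlap in RH39, an RNA helicase of large-subunit RNA maturation (0.49 ± 0.16, limma adjusted p = 0.264), and in AT5G46580, a pentatricopeptide repeat protein of plastid RNA (0.51 ± 0.16, limma adjusted p = 0.244). In these 3 of the 8 genes every pam48 array was above every wild-type array, as in 9.14% of all probe sets. Whether the assembly list differs from the 9 ribosomal protein genes was not tested.

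**Figure D4:**
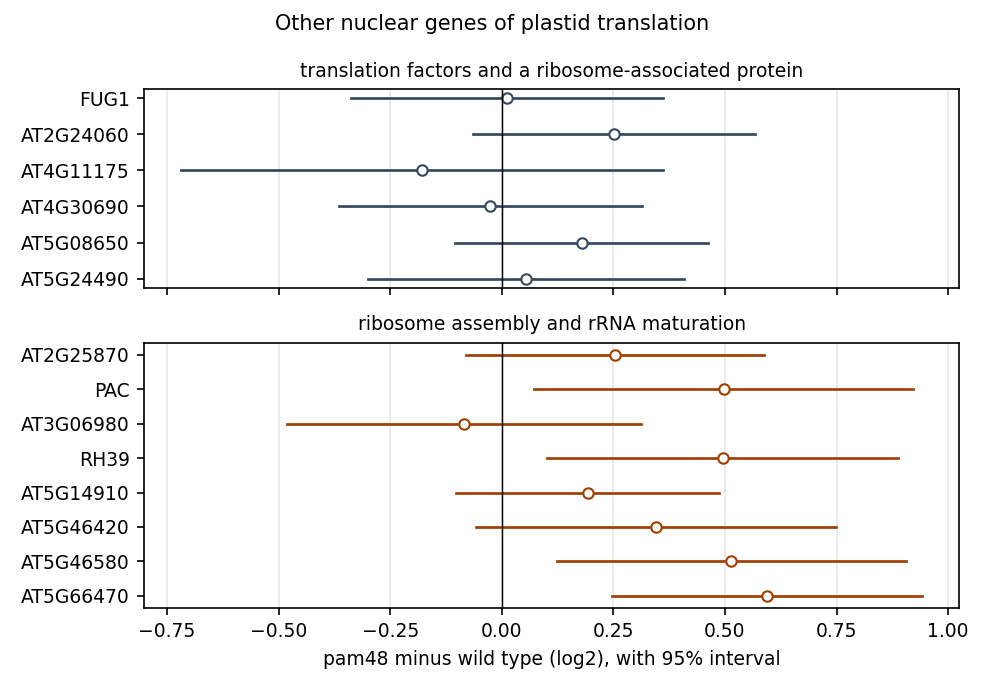
Change in mean log2 value (pam48 minus wild type) with 95% intervals from limma (n = 3 arrays per genotype), for 6 genes of plastid translation factors and ribosome-associated proteins (top) and 8 of ribosome assembly and ribosomal RNA maturation (bottom); open points were not called. The upper genes lie between −0.18 and 0.25 and the lower between −0.09 and 0.59.

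Among 13427 other probe sets of a single gene, the 3 whose values followed the centred mean of the 9 members best over the 6 arrays were those of AT4G00170 (r = 0.993), ENOC, which encodes an enolase (r = 0.987), and AT2G25870 (r = 0.985). With 6 arrays and this many probe sets high values of r are reached readily, and these are given as a description. AT2G25870 is also in the assembly list, where its brighter probe set represents it.

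Over the whole table limma called 177 of 22746 probe sets. Correlations between arrays lay between 0.952 and 0.992, and array medians between 6.38 and 6.55. Of 14 leaf marker loci 1 was measured, RCA, the activase of the carbon-fixing enzyme Rubisco, at 14.24 ± 0.12 in pam48 and 14.31 ± 0.02 in wild type. Of 14 marker loci of other tissues 4 were measured and 0 were called. FMA of guard cells was at 5.47 to 5.55 in pam48 and 5.70 to 6.08 in wild type (difference −0.41, unadjusted p = 0.0160 and limma adjusted p = 0.237), and CLV3 of the shoot apex at 3.20 to 3.34 in pam48 and 3.45 to 3.70 in wild type (−0.31, unadjusted p = 0.0291 and limma adjusted p = 0.301). The genotypes did not overlap in either, as in 20.5% of all probe sets. AT5G17820 of the root was at 3.65 to 4.21 in pam48 and 3.99 to 4.07 in wild type, and PYK10 of the root ranged from 5.56 to 9.74 in pam48 and from 5.19 to 8.51 in wild type. All values of FMA, CLV3 and AT5G17820 lay below the array medians. The part of tissue makeup in the values above was not tested.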

How the data were processed

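Deposited values are log2 summaries per probe set, which the authors computed by RMA, per the submitters' processing notes; its version and the genome build were not given in the sources used here. The table held 22810 rows, of which 64 were control probe sets, used only for the 3′ and 5′ check, and 22746 were tested. Scanner intensities were not used here, and precision is limited by the number of arrays.

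Gene names came from GEO's annotation of the platform (13513 with 1 gene, 503 with several, 8730 with none), brought up to date with the gene table of TAIR10.1, which held 13436 of those with 1 gene. That table gives the 9 members by locus only; protein families and roles are background knowledge. No sequence is shown. The main comparison used limma 3.58.1 (R 4.3.3) with lmFit and eBayes; tests were two-sided, with Benjamini-Hochberg adjustment across the tested probe sets and a threshold of 0.05. The code was tested on simulated data. Where a locus had several such probe sets, the one with the highest mean stood for it.

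The members and lists were chosen with earlier results of these data known. The genes to be named were all measured members, plastid-encoded rps and rpl genes that were called or had the largest or smallest difference, the called or most different gene of each other list, and the 3 probe sets most like the members; FUG1, AT5G08650, RH39 and AT5G46580 were added after their values were seen. The partner pairs were also chosen with results known.

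Replicate numbers are shared by the genotypes. Deviations from genotype means correlated with 0.53, 0.20 and 0.54 between arrays numbered 1, 2 and 3. Correlations between arrays of different numbers are not given here, so these values do not show whether the numbers mark pairs. The labels do not state it either. The pairs were used in the differences by replicate number and in the block. The main fit, with its intervals, and the exact permutation tests did not use them. Alternatives were the replicate block, quantile normalization, median centring, leaving out the dimmest 40% of probe sets, trend and robust eBayes, array weights, each array left out, a threshold of 0.01, and other choices of probe sets.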

Additional observations from a re-analysis of the deposited data

How the results depend on the processing

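The count of 0 called nuclear genes for plastid ribosomal proteins held under each alternative run, as did the count of 0 in the other nuclear lists. Several of these fits called almost nothing, so that their 0 says little. Of all 22746 probe sets 1 was called without each wild-type array, 12 without pam48 replicate 2 and 39 without pam48 replicate 3. In the main fit 0.778% were called. With an array left out, the nuclear median lay between 0.0081 and 0.12 and the shift between the nuclear and plastid lists between −0.81 and −0.48. The plastid-encoded median lay between 0.51 and 0.75 and the count of called plastid-encoded genes between 0 and 5. That count was 5 with the replicate block, with median centring and with array weights, where 412, 169 and 351 of all probe sets were called against 177. It was 0 at an adjusted p under 0.01. How many of all probe sets pass 0.01 was not counted, so that this 0 has no share beside it. Without the dimmest 40% of probe sets, rps14 and its pair could not be fitted. The block changed the call of rpl20 and of no other gene named in these lists. Differences close to 0 turned sign: AT2G43030 (−0.029), rps14 (−0.0072), AT4G00170 (−0.011) and ENOC (−0.0096) with median centring, and AT3G13120 (0.013) and rps14 (−0.058) with array weights. With an array left out, the ranges were −0.22 to 0.0036 for AT1G64510, −0.13 to 0.12 for AT3G13120, −0.054 to 0.094 for AT2G43030, −0.15 to 0.039 for AT1G29070, −0.13 to 0.18 for rps14, −0.024 to 0.099 for AT4G00170, −0.014 to 0.087 for ENOC and −0.0035 to 0.27 for AT2G25870, and −0.30 to 0.24 for the shift of AT3G13120 against rps14. The cause was not tested. Limits set by signal over background were not examined.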

Other observations

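Some plastid-encoded ribosomal protein genes lie at least in part in the inverted repeat of the plastid genome, and so have a pair of copies listed per probe set. Of these, 4 genes were measured by 5 probe sets. Of the 5 limma called 0, where 0.778% of all probe sets were called. Before adjustment 3 of the 5 were under 0.05, where 13.5% of all probe sets were. The differences were 0.79 ± 0.15 for rps7, 0.35 ± 0.11 for rpl2 and 0.25 ± 0.12 for rpl23. The 2 probe sets of rps12, a gene whose RNA is joined by trans-splicing, disagreed in sign, at 0.85 ± 0.22 and −0.52 ± 0.27. Neither was called (limma adjusted p = 0.172 and 0.473), and which part of the RNA each detects was not tested.

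The 2 probe sets of AT2G25870 differed in how they followed the arrays. One had 7.18, 7.02 and 7.57 in pam48 and 7.16, 7.21 and 6.93 in wild type, lowest in pam48 on replicate 2. The other had 9.58, 9.98 and 9.86 in pam48 and 9.57, 9.67 and 9.43 in wild type, where pam48 replicate 2 was highest.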
